A study of Mus musculus with 10 samples.

Results

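The genes for the proteins of the cytosolic ribosome were followed in RNA of the mouse lumbar spinal cord at E12.5. Genes were taken by annotation alone, as protein-coding genes whose symbol starts with Rpl or Rps and a number, with *Rplp0*, *Rplp1*, *Rplp2* and *Rpsa*. Kinases, pseudogenes and symbols ending in l1, among them the paralogs *Rpl7l1* and *Rpl22l1*, were left out. This gave 84 of the 54146 genes in the count table. Of these, 31 encode proteins of the small subunit, 43 proteins of the large subunit and 3 proteins of the stalk, 6 are paralogs, and 1, *Rps19bp1*, fits the letters of the rule but encodes a protein that binds RPS19 and is not part of the ribosome. After a filter on low counts, 81 of the 84 were among the 19773 genes tested. The paralogs *Rpl3l*, *Rpl10l* and *Rpl39l* did not pass.

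RNA-seq was performed on 5 controls and 5 embryos labelled *Dot1l*-cKO, with 1 library per embryo, from 2 litters. The *Dot1l*-cKO embryos carried the Wnt1cre2 transgene, which the labels place at *E2f1*, and 2 floxed alleles of *Dot1l*, and *Wnt1* itself is active in the dorsal neural tube and the neural crest. The controls had no transgene. The 3 controls of litter 1 carried 2 floxed alleles and the 2 controls of litter 2 carried 1, so that among controls the litter and the number of floxed alleles cannot be told apart. Litter 1 also held 3 and litter 2 also held 2 *Dot1l*-cKO embryos, and dissection did not remove the dorsal root ganglia. Single embryos carry their label, which starts with Ctr in controls and with Mut in *Dot1l*-cKO embryos. DOT1L methylates histone H3 at lysine 79, and the study asked what its loss changes in the developing spinal cord.

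A ribosome consists of a small subunit, which reads the mRNA, and a large subunit, which joins amino acids and carries the stalk of RPLP0, RPLP1 and RPLP2 that recruits translation factors. Nearly every ribosomal protein is needed in equal number, and their mRNAs are among the most abundant of any cell. Many of these mRNAs start with a tract of pyrimidines (C and T in DNA), by which their translation is set together by mTOR signalling. In the embryonic neural tube, dividing progenitors make ribosomes at a high rate, and production falls as neurons mature.

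The pyrimidine tract is a sequence that many of these genes share and that the choice by symbol did not use. Of the 84 genes, 64 had an entry in the RefSeq promoter table for GRCm38.p6. A run of 8 or more letters that are each C or T, on the transcribed strand and reaching within 20 bases of an annotated start, was present for 32 of the 64 genes (50%) and for 6399 of all 27025 genes in the table (23.7%). Below are 30 bases, 10 before and 20 after an annotated start, for genes picked by hand, with the longest run at the start in capitals. Where a gene had several annotated starts, the start with the longest run is shown. *Rps10*, *Rplp2* and *Rpl27a* had the larger differences between genotypes, *Rps6* and *Rpsa* differed between litters, and *Rpl38* passed neither test.
Rps10 (chr17:27635225-27635254, minus strand): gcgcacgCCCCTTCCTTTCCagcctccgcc
Rplp2 (chr7:141447641-141447670, plus strand): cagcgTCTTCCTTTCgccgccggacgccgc
Rpl27a (chr7:109519185-109519214, plus strand): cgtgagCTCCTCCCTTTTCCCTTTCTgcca
Rps6 (chr4:86857348-86857377, minus strand): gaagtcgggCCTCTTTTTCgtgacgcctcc
Rpl38 (chr11:114668570-114668599, plus strand): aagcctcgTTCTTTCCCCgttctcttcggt
Rpsa (chr9:120127756-120127785, plus strand): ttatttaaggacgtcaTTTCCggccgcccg
*Rpsa*, with 5 letters, had none of 8 or more in this entry. The annotated start is not always the start used in a tissue, so a missing run describes only this window.

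Total counts on genes lay between 40949585 and 68928443 per embryo, and the 84 genes held 2.13% to 2.62% of them. A level is stated in CPM, the count scaled by the TMM library size, or between genes as CPM per kilobase of the median coding transcript (FPKM). Spinal progenitor markers summed to 2506 to 3745 CPM, neuron markers to 7134 to 7997 CPM, and the posterior *Hox* genes of lumbar levels to 433 to 590 CPM, so the tissue carried the markers of its label. *Dot1l* itself ranged from 87.6 to 107 CPM in controls, and its range in the *Dot1l*-cKO embryos was 97.8 to 112 CPM. Counts over the whole gene thus did not fall and do not check the genotype. Both *Dot1l*-cKO embryos of litter 2 had *Xist* at 6.00 and 6.79 CPM and the Y-linked *Ddx3y* at 46.7 and 41.5 CPM, whereas the other 8 embryos had *Xist* between 499 and 890 CPM and *Ddx3y* at 0.242 CPM or less. In litter 2 the genotype and the sex of the embryo therefore cannot be told apart. In whole tissue, fewer cells of a type and less RNA per cell cannot be told apart either.

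Ribosomal protein genes were abundant and even. Of the 81 tested genes, 75 had a mean of at least 100 CPM, and 67 varied by less than 1.5-fold between the lowest and the highest embryo. Per length, the highest level was that of *Rplp0*, the base of the stalk, at 1032 FPKM, followed by *Rpl41*, a very short peptide of the large subunit, at 801 FPKM. Next were *Rps9* at 794 FPKM, *Rps24* at 754 FPKM and *Rps14* at 740 FPKM, all small subunit proteins. The lowest levels among genes over 1 CPM were those of *Rpl36al* (1.91 FPKM), *Rps27rt* (4.13 FPKM), *Rpl24* (16.8 FPKM), *Rps19bp1* (22.6 FPKM) and *Rps27l* (70.6 FPKM).

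Some of these low values are uncertain. Ribosomal protein genes have many near-identical copies, and 301 rows of the table are named ribosomal protein pseudogenes, which held only 5322 to 8432 counts per embryo. How reads that fit several positions were counted is not given in the sources used here. *Rpl24* and *Rpl13a*, core proteins of the large subunit, were at 11.4 and 45.1 CPM, far below their partners in the same particle. Their differences between groups rest on the part of their reads that was counted.

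The embryos of litter 2 had more ribosomal protein mRNA than those of litter 1. Of the 81 tested genes, 80 had a positive log2 fold change of litter 2 against litter 1 within genotype. With edgeR's quasi-likelihood test and Benjamini-Hochberg adjustment over all 19773 tested genes, 58 increased and 0 decreased at an adjusted p below 0.05. Of all tested genes 16.9% were called higher and 17.8% lower, so the 58 of 81 (71.6%) stood above the background in one direction only. The median log2 fold change of the 81 genes was 0.19 and that of all tested genes was -0.02. The 4 embryos of litter 2 lay entirely above the 6 of litter 1 for 42 of the 81 genes, against 11.9% of all tested genes. P-values here measure the spread between embryos, each a separate library. With 1 litter on each side, they do not measure the spread between litters.

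**Figure D1:**
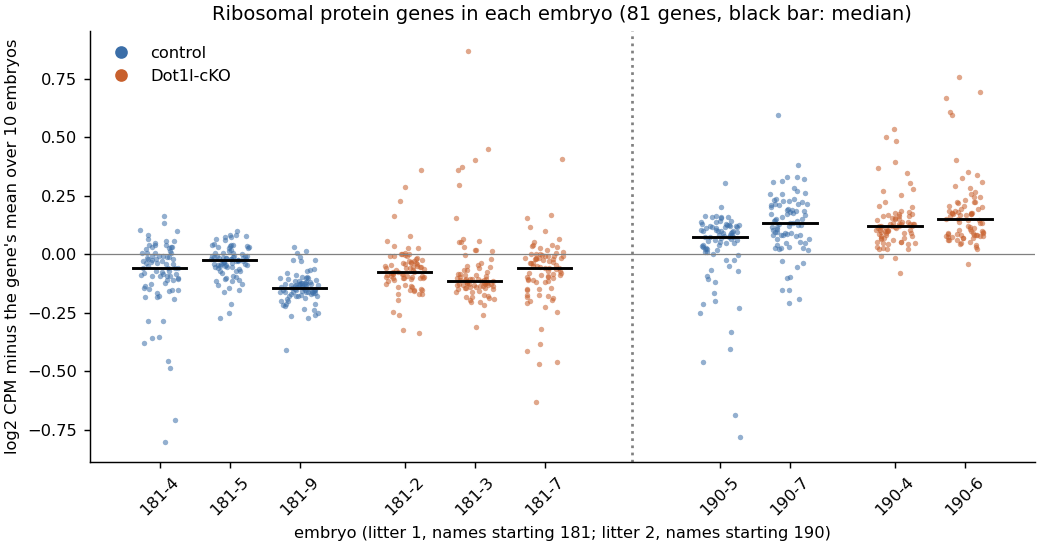
Log2 CPM of each of 81 ribosomal protein genes minus its mean over 10 embryos, with 1 point per gene, 1 column per embryo and the median as a black bar. The medians of litter 2 lay between 0.07 and 0.15 and those of litter 1 between -0.14 and -0.02, with both genotypes in each range.

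The shift was shared by both subunits and was small for each gene. In the small subunit, 26 of 31 genes rose in litter 2 and 0 fell, with a median log2 fold change of 0.20. In the large subunit without the stalk, 30 of 43 rose and 0 fell, with a median of 0.18. Of the stalk genes, *Rplp0* rose (log2 fold change 0.28) and *Rplp1* and *Rplp2* did not pass the test. *Rplp0* did not pass with *Xist* as a covariate (0.16) or in controls alone (0.17). All 77 genes of the ribosome proper were positive, from 0.04 for *Rpl36* to 0.34 for *Rpsa*.

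*Rpsa*, which encodes a small subunit protein that also serves as a laminin receptor precursor, had the smallest p. It lies on chromosome 9 from 120127689 to 120132369 (GRCm38). Its 6 values in litter 1 were 606, 645 and 620 CPM in controls and 620, 609 and 662 CPM in *Dot1l*-cKO embryos. In litter 2 they were 747 and 780 CPM in controls and 821 and 829 CPM in *Dot1l*-cKO embryos. All embryos of litter 2 were above all of litter 1 (difference of 0.34 ± 0.04 (SE) on the log2 scale, edgeR adjusted p = 4.8e-05).

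*Rps6*, the small subunit protein phosphorylated downstream of mTOR, was even within each litter. It measured 198 ± 8.05 CPM (SD, n = 6) in litter 1 and 241 ± 5.11 CPM (SD, n = 4) in litter 2, with a log2 fold change of 0.29 (standard error 0.04, edgeR adjusted p = 0.000166). *Rpl5* and *Rpl11*, which bind 5S rRNA and, outside the ribosome, MDM2, rose by 0.29 and 0.24 on the log2 scale. *Rps19*, the small subunit gene most often mutated in Diamond-Blackfan anaemia, rose by 0.22. *Rpl10*, which joins the large subunit late in its assembly, rose by 0.18 and *Rpl22* by 0.16, the call of *Rpl22* being lost without Ctr_190-7 (0.14), with library size only (0.11) and in each genotype alone (0.20 and 0.12). The calls of *Rps19* and *Rpl11* were lost with *Xist* as a covariate (0.15 and 0.17) and in controls alone (0.15 and 0.18). That of *Rpl10* was lost in controls alone (0.19) and in *Dot1l*-cKO embryos alone (0.16). The groups of these 6 genes did not overlap between litters.

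Other genes with the smallest p were *Rpl9* (0.28), *Rpl32* (0.24) and *Rpl3* (0.23) of the large subunit and *Rps4x* (0.25) and *Rps2* (0.29) of the small subunit. *Rpl13a* (0.34) and *Rpl41* (0.30) were among the largest log2 differences, with *Rpl13a* uncertain as above. *Rpl38*, whose protein has been linked to the translation of *Hox* mRNAs, measured 106 ± 6.10 CPM (SD, n = 6) in litter 1 and 112 ± 1.90 CPM (SD, n = 4) in litter 2. Its log2 fold change of 0.09 did not pass the test (standard error 0.05, edgeR adjusted p = 0.166), and with the GC trend removed it was 0.16 and passed (adjusted p = 0.0330, at most 0.524 over the alternatives). *Rpl24*, which has been linked to the same class of patterning defects, differed by 0.23 on the log2 scale (edgeR adjusted p = 0.0738). It passed with DESeq2 (adjusted p = 0.0498), with the GC trend removed (edgeR adjusted p = 0.0459) and without Mut_181-7. Over the alternatives its adjusted p reached 0.323. The smallest differences were those of *Rps19bp1* (-0.10), *Rpl36* (0.04), *Rpl37* (0.08), *Rpl38* and *Rps7* (0.09), and the rare *Rpl36al* had the largest (0.41, edgeR adjusted p = 0.108). The latter was 0.27 without Ctr_190-7, below *Rpsa* (0.34), and 0.55 without Ctr_190-5, where it passed.

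The difference between litters was present in each genotype. Among the 5 controls, 21 of 81 genes rose and 0 fell in litter 2 (11.6% and 12.9% of all tested genes), with a median log2 fold change of 0.18. Among the 5 *Dot1l*-cKO embryos, 37 rose and 0 fell (8.92% and 9.7% of all tested genes), with a median of 0.24. In both fits 13 genes were called, which is 61.9% of the 21 and 35.1% of the 37. They are 16% of the 81, where 6.62% of all genes tested in both fits were called higher in both. These 2 fits use different embryos, with 3 against 2 in each. Among *Dot1l*-cKO embryos, those of litter 2 had low *Xist* and high *Ddx3y* and those of litter 1 did not. There the litter and the sex of the embryo cannot be told apart, as litter and floxed alleles cannot among controls. Litter 2 lay above litter 1 without overlap for 55 genes among controls and 73 among *Dot1l*-cKO embryos, against 24.7% and 24.4% of all tested genes. Among *Dot1l*-cKO embryos *Rps19bp1* lay below without overlap.

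A few genes did not follow the common shift among controls. *Rplp1*, *Rplp2* and *Rpl36* were lower in the litter 2 controls than in the litter 1 controls, with log2 fold changes of -0.07, -0.11 and -0.31, none of which passed the test (edgeR adjusted p = 0.668, 0.765 and 0.177). Among the *Dot1l*-cKO embryos they were 0.49, 0.45 and 0.37 higher in litter 2, again without passing (adjusted p = 0.106, 0.187 and 0.269).

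**Figure D2:**
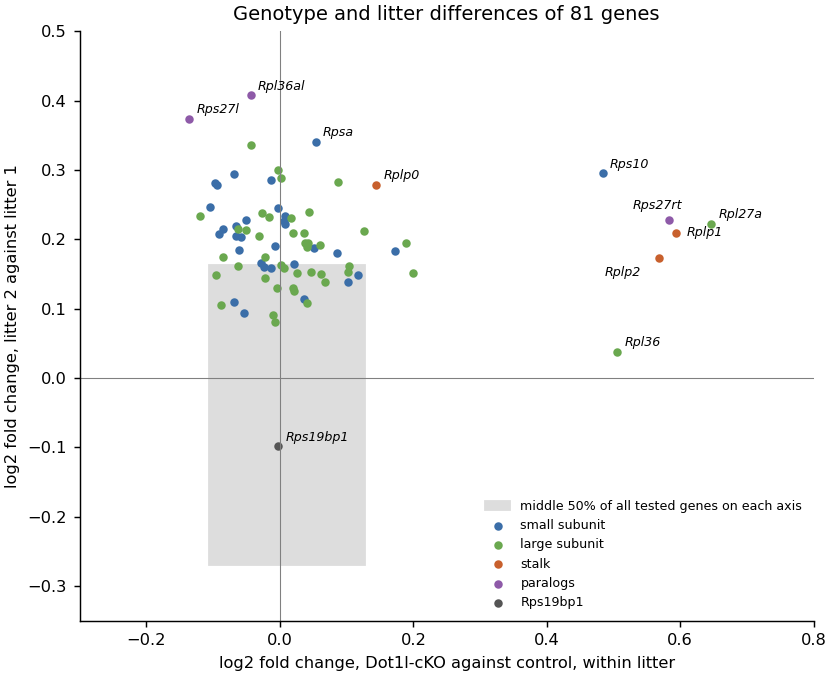
Log2 fold change between genotypes (x axis) and between litters (y axis) for 81 ribosomal protein genes, coloured by role, with the middle 50% of all 19773 tested genes on each axis as a grey box. All but 1 point lie above 0 on the y axis, and 6 points lie beyond 0.4 on the x axis, namely *Rps10*, *Rplp1*, *Rplp2*, *Rpl36*, *Rpl27a* and *Rps27rt*.

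Genes that work with the ribosome showed how far the litter difference reached, each list taken whole and described by its count beside the same 16.9% and 17.8%. Of 10 elongation factors and related genes 9 rose and 0 fell (median log2 fold change 0.20), among them *Pabpc1*, the poly(A)-binding protein (0.27), and *Eef1d*, which reloads elongation factor with GTP (0.26). Of 28 initiation factors 23 rose and 1 fell (median 0.18). *Eif3i* and *Eif2s1* rose by 0.30 and 0.31 on the log2 scale, and the 1 that fell was *Eif4a2*, a helicase abundant in neurons (-0.35). Of 40 ribosome biogenesis genes 22 rose and 0 fell (median 0.19), led by *Heatr1*, part of the machinery that processes small subunit rRNA (0.40), and *Dkc1*, which modifies rRNA (0.47).

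Other lists were further from the cytosolic ribosome. Of 11 RNA polymerase I genes 3 rose and 0 fell (median 0.09). Of 77 mitochondrial ribosomal protein genes 18 rose and 0 fell (median 0.10), led by *Mrpl13* (0.34). Of 86 oxidative phosphorylation genes 3 rose and 2 fell (median 0.01), and of 9 snoRNA host genes 0 rose and 2 fell, *Snhg12* (-0.44) and *Gas5* (-0.14), the latter a transcript with a pyrimidine tract. *Rack1*, a protein of the small subunit with another kind of symbol, rose by 0.32 (edgeR adjusted p = 0.000177), while *Fau* did not pass (0.19, edgeR adjusted p = 0.0740). Among 14 growth regulators 5 rose and 1 fell, with *Eif4ebp2*, a translation repressor under mTOR, at 0.35, *Trp53* at 0.34 and *Myc* at -0.67.

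Markers of cell state differed between litters in the same embryos. All 10 cycling markers rose in litter 2 (median log2 fold change 1.07), and their sum was 580 to 965 CPM in litter 1 and 1480 to 1889 CPM in litter 2. Of 8 spinal progenitor markers 7 rose (median 0.66), with sums of 2506 to 2989 and 3545 to 3745 CPM. Of 10 neuron markers 1 rose and 4 fell, with sums of 7275 to 7997 and 7134 to 7543 CPM. Of 9 dorsal root ganglion markers 0 rose and 6 fell, with sums of 781 to 1054 and 552 to 695 CPM, and none of the 9 was at 0 in every embryo. This list is not particular to the ganglia, since the paper uses BRN3A, the product of *Pou4f1* in the list, for dorsal spinal neurons. Of 9 erythroid genes 5 rose and 1 fell, with sums of 871 to 1022 and 1350 to 2078 CPM, the embryonic globins *Hbb-bh1* (2.51) and *Hba-x* (1.51) rising most. Of 6 endothelial markers 0 rose and 2 fell, of 8 mesenchyme markers 2 rose and 1 fell, of 5 motor neuron markers 2 rose and 0 fell, and of 6 microglia markers 0 rose and 0 fell (edgeR). The sums of the cycling, progenitor, dorsal root ganglion and erythroid lists did not overlap between litters and those of the neuron, motor neuron, mesenchyme, endothelial and microglia lists did. The parts of litter, cell makeup and stage in the values of the ribosomal protein genes cannot be told apart.

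**Figure D3:**
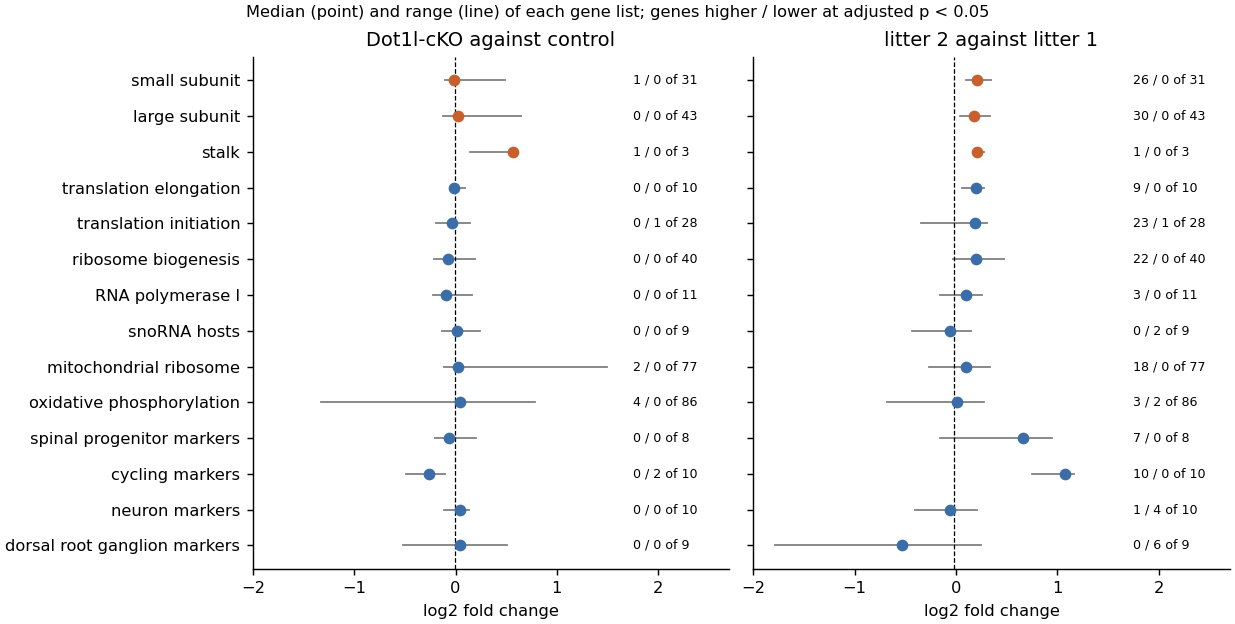
Median (point) and lowest to highest (line) log2 fold change of 14 gene lists between genotypes (left) and between litters (right), with the number of genes higher and lower at the adjusted threshold and the number tested beside each line. The dashed line is the median of all tested genes. On the right, the small and large subunit points lie near 0.20 and 0.18, the cycling markers at 1.07 and the dorsal root ganglion markers at -0.53.

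Between genotypes, most ribosomal protein genes showed little difference and a few were higher in the *Dot1l*-cKO embryos. Within litter, the median log2 fold change of the 81 genes was 0.00 and that of all tested genes -0.01, and 42 of the 81 were positive. *Rps10* and *Rplp1* increased and 0 decreased (edgeR, 1.9% and 1.09% of all tested genes). The 2 of 81 are 2.47%, close to the background. At an unadjusted p below 0.05, 10 were higher and 2 lower, together 14.8% of the 81 against 21.7% of all tested genes. Only *Rps27rt* had all 5 *Dot1l*-cKO embryos above all 5 controls, where 1.01% of all tested genes did, and none had all 5 below (0.915%). The count of 2 depended on single embryos. It was 7 without Mut_181-7, 1 without Ctr_181-5, Ctr_181-9, Mut_181-2, Mut_181-3 or Mut_190-4, and 0 without Ctr_181-4, Ctr_190-5, Ctr_190-7 or Mut_190-6. The share of all tested genes called higher moved too, to 4.90% without Mut_181-7, to between 0.265% and 1.27% in the fits with 1, and to between 0.177% and 0.490% in those with 0.

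The 77 genes of the ribosome proper fell into a large even group and a small group set apart. In 72 of them the log2 fold change lay between -0.12 and 0.20, with a median standard error of 0.05 over the 81 genes. In the other 5, *Rpl27a*, *Rplp1*, *Rplp2*, *Rpl36* and *Rps10*, it lay between 0.48 and 0.65. These 5 and the paralogs *Rps27rt* and *Rpl36al* were also the 7 genes with the widest spread over the 10 embryos. The 5 were set apart by their values after these were seen, so no test is given for them as a group.

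*Rps10*, a protein at the head of the small subunit, lies on chromosome 17 from 27630418 to 27636669 on the minus strand. Controls measured 142, 153 and 153 CPM in litter 1 and 172 and 166 CPM in litter 2. *Dot1l*-cKO embryos measured 188, 239 and 161 CPM in litter 1 and 239 and 281 CPM in litter 2. Within each litter the groups did not overlap, except that over both litters 1 *Dot1l*-cKO embryo of litter 1 (161 CPM) lay below the controls of litter 2. The means were 157 ± 11.9 CPM (SD, n = 5) and 222 ± 47.3 CPM (SD, n = 5), with a log2 fold change of 0.48 (standard error 0.09, edgeR adjusted p = 0.0211). The spread of the *Dot1l*-cKO embryos was wider than that of the controls. With each embryo omitted in turn, the gene was called in 6 of 10 fits and not without Ctr_181-4 (0.48), Ctr_190-5 (0.47), Ctr_190-7 (0.46) or Mut_190-6 (0.43), where the edgeR adjusted p reached 0.0753.

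*Rplp1*, which pairs with RPLP2 to form the flexible arms of the stalk, lies on chromosome 9 from 61913284 to 61914542 on the minus strand. Controls measured 226, 286 and 286 CPM in litter 1 and 230 and 274 CPM in litter 2. *Dot1l*-cKO embryos measured 371, 418 and 243 CPM in litter 1 and 459 and 503 CPM in litter 2. Mut_181-7 (243 CPM) lay within the range of the controls and the other 4 *Dot1l*-cKO embryos above it. The log2 fold change was 0.59 (standard error 0.14, edgeR adjusted p = 0.0418). With each embryo omitted in turn, it was called in 1 of 10 fits, the fit without Mut_181-7 (0.73), and not in the other 9 (0.51 to 0.66), where the edgeR adjusted p reached 0.117.

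*Rplp2*, its partner, lies on chromosome 7 from 141447370 to 141451585. It measured 117, 186 and 195 CPM in the controls of litter 1 and 111 and 196 CPM in those of litter 2. *Dot1l*-cKO embryos measured 232, 261 and 139 CPM in litter 1 and 267 and 308 CPM in litter 2. The same *Dot1l*-cKO embryo, Mut_181-7, lay among the controls. Only Ctr_181-4 (117 CPM) and Ctr_190-5 (111 CPM) lay below Mut_181-7, and the other controls lay well above it. Ctr_181-4, Ctr_190-5 and Mut_181-7 were also the lowest embryos for *Rplp1* and *Rpl36*. They span both genotypes and both litters, and what they share was not tested. The difference of 0.57 on the log2 scale did not pass the test over both litters (standard error 0.20, edgeR adjusted p = 0.121). *Rplp0*, which anchors both partners, was at 834 ± 68.9 CPM (SD, n = 5) in controls and 929 ± 146 CPM (SD, n = 5) in *Dot1l*-cKO embryos, a log2 fold change of 0.14 (adjusted p = 0.167 by edgeR).

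*Rpl36*, a small large-subunit protein with the highest GC content of the tested genes, measured 82.4, 119 and 114 CPM in the controls of litter 1 and 70.3 and 99.2 CPM in those of litter 2. *Dot1l*-cKO embryos measured 145, 145 and 81.8 CPM in litter 1 and 148 and 171 CPM in litter 2. *Rpl27a*, a large subunit protein, measured 101, 109 and 97.7 CPM in the controls of litter 1 and 103 and 121 CPM in those of litter 2. *Dot1l*-cKO embryos measured 124, 237 and 97.5 CPM in litter 1 and 161 and 219 CPM in litter 2. Again 4 of the 5 *Dot1l*-cKO embryos lay above every control and Mut_181-7 did not. The log2 fold changes were 0.51 (standard error 0.18, edgeR adjusted p = 0.120) and 0.65 (standard error 0.18, edgeR adjusted p = 0.0652). With each embryo omitted in turn they ranged from 0.37 to 0.67 and from 0.41 to 0.79, and *Rplp2* from 0.41 to 0.72. The lowest were without Ctr_190-5 for *Rpl36* and *Rplp2* and without Mut_181-3 for *Rpl27a*. All 3 were highest, and passed the test, without Mut_181-7.

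**Figure D4:**
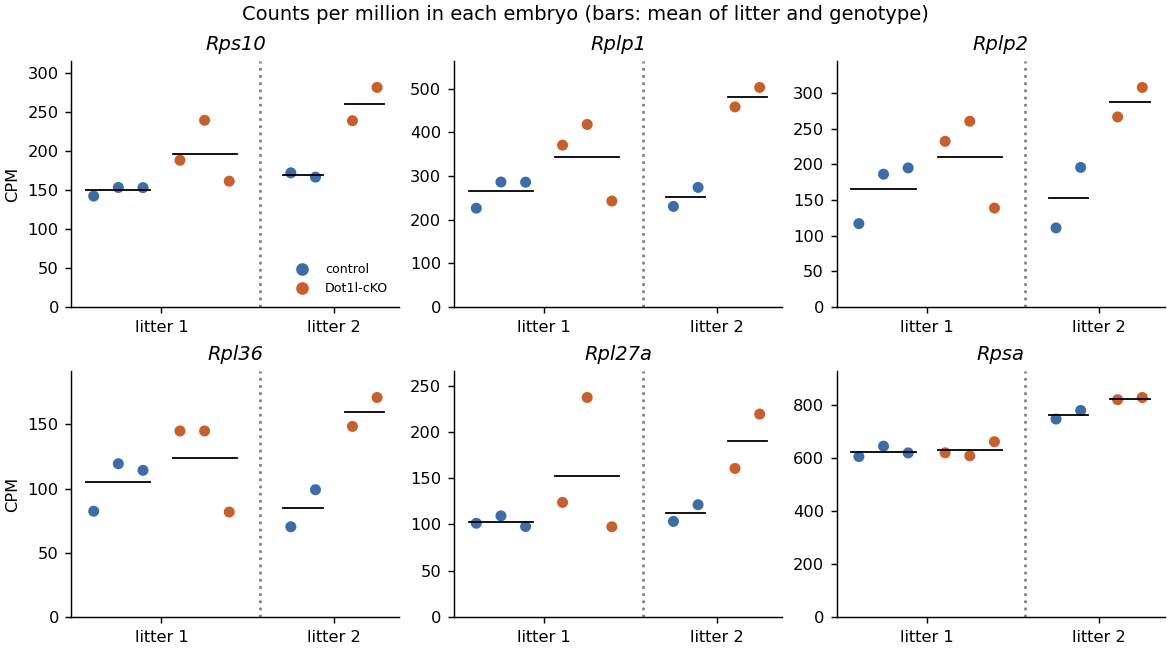
CPM of 6 ribosomal protein genes in each of 10 embryos, with controls in blue, *Dot1l*-cKO embryos in orange and a bar at the mean of each genotype in each litter. In *Rplp1*, *Rplp2*, *Rpl36* and *Rpl27a*, 1 *Dot1l*-cKO embryo of litter 1 sits at the level of the controls and the other 4 above them, whereas *Rpsa* is split by litter, with 606 to 662 CPM in litter 1 and 747 to 829 CPM in litter 2.

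The 6 paralogs among the 84 genes were mostly rare. *Rpl7l1* and *Rpl22l1*, which the rule leaves out, were at 90.0 and 45.6 CPM. *Rps4l*, which the annotation does not hold as protein-coding and which is not among the 84, was at 43.2 CPM, with a log2 fold change between genotypes of 0.39 (edgeR adjusted p = 0.0599). *Rpl3l*, the form of striated muscle, had at most 0.117 CPM in any embryo and *Rpl39l*, a form of the testis, at most 0.0918 CPM, and *Rpl10l*, a retrocopy used in spermatogenesis, had 0 counts in all 10 embryos. *Rpl3*, *Rpl10* and *Rpl39*, which they resemble, were at 569, 399 and 139 CPM. *Rps27rt*, a copy of *Rps27* without introns, was at 1.24 ± 0.242 CPM (SD, n = 5) in controls and 1.85 ± 0.242 CPM (SD, n = 5) in *Dot1l*-cKO embryos, a log2 fold change of 0.58 that did not pass the test (edgeR adjusted p = 0.0619) and passed with DESeq2 (adjusted p = 0.0280, at most 0.355 over the alternatives). *Rps27* was at 206 CPM, and reads that both share cannot be told apart. *Rps27l*, a target of p53, differed between litters instead, with 31.5 ± 2.93 CPM (SD, n = 6) in litter 1 and 40.8 ± 3.02 CPM (SD, n = 4) in litter 2, a log2 fold change of 0.37 (edgeR adjusted p = 0.000534). Its log2 fold change between genotypes was the lowest of all 81, at -0.14 (adjusted p = 0.239 by edgeR), and among the next lowest were *Rps4x* (-0.11), *Rps14* (-0.10) and *Rpl26* (-0.10), none of which passed. With each embryo omitted in turn, *Rps27l* ranged from -0.20 to -0.10 between genotypes. It passed in 1 of 10 fits, that without Mut_181-7 (edgeR adjusted p = 0.0460), where 2.11% of all tested genes were lower.

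The genotype was also compared within each litter. In litter 1, with 3 against 3 embryos, 0 ribosomal protein genes passed (edgeR, 0.00519% of all tested genes higher and 0.0571% lower), and at an unadjusted p below 0.05 there were 4 higher and 0 lower (4.94% of the 81 against 14.1% of all tested genes). In litter 2, with 2 against 2 embryos, 8 increased and 0 decreased (3.98% and 1.16% of all tested genes). These 8 were *Rplp1*, *Rplp2*, *Rplp0*, *Rps10*, *Rpl36*, *Rpl27a*, *Rpl12* and *Rpl13*. All 3 stalk genes were among them. In the same comparison 5 of 9 dorsal root ganglion markers and 4 of 9 erythroid genes rose (medians 0.50 and 0.44) and 4 of 10 cycling markers fell (median -0.26). Their part was not tested. The log2 fold changes of the 8 ribosomal protein genes lay between 0.29 and 0.94 in litter 2 and between 0.05 and 0.58 in litter 1, positive for all 8 in both.

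Whether the genotype difference itself differed between litters was tested as an interaction. None of the 81 genes passed (edgeR, smallest adjusted p = 0.541), where 0.00489% of all 20446 tested genes passed in each direction. At an unadjusted p below 0.05 there were 5 of the 81 (6.17%) and 8.05% of all tested genes. The 5 were *Rplp1*, *Rplp0*, *Rpl36*, *Rpl12* and *Rpl34*, of which 4 had the larger difference in litter 2. *Rplp1* was 0.94 higher in litter 2 and 0.38 higher in litter 1 on the log2 scale, a difference of 0.56 with a standard error of 0.25. A larger difference in litter 2 was therefore not shown.

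GC content and length were examined because ribosomal protein mRNAs are short and vary in GC. Of the 81 genes, 60 (74.1%) were in the shortest quintile of all tested genes by transcript length. Their GC content ran from 41.7% to 60.8% with a median of 51.8%. Across all tested genes the genotype difference followed GC, with a median log2 fold change of -0.06 in the quintile of lowest GC and 0.10 in that of highest GC. The ribosomal protein genes in those quintiles had medians of -0.03 (4 genes) and 0.07 (14 genes). By length, the medians of all genes ran only from 0.00 in the shortest to -0.03 in the longest quintile. With the trend on the merged exon length of each gene removed, 24 of the 81 were positive between genotypes (median -0.039). Without this correction 42 were. With the trend on transcript length removed, 30 were positive (median -0.023). In these 2 fits the medians of all tested genes were -0.017 and -0.019.

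**Figure D5:**
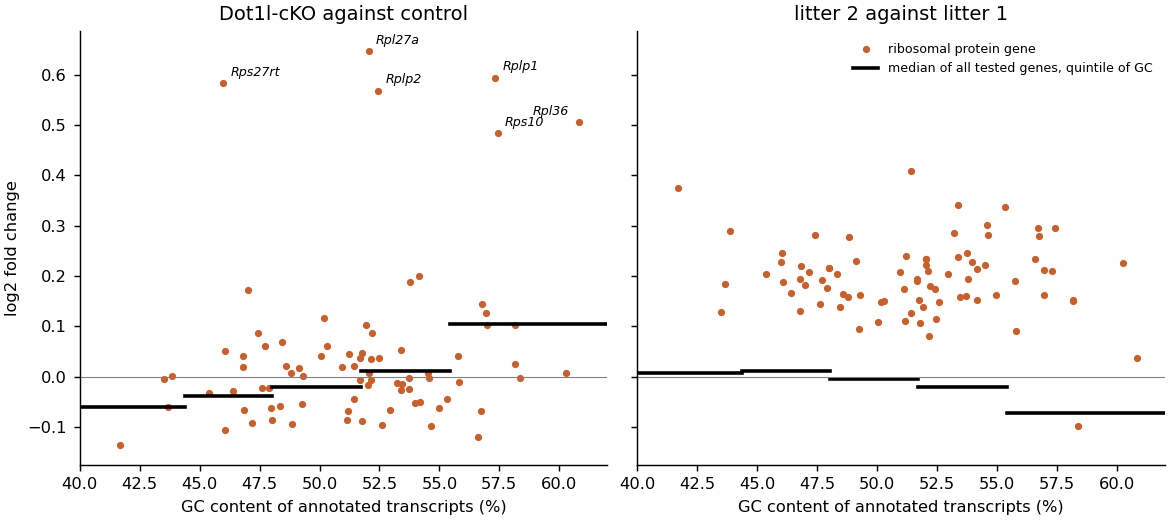
Log2 fold change of 81 ribosomal protein genes (orange) between genotypes (left) and between litters (right) against the GC content of their annotated transcripts, with the median of all tested genes in each quintile of GC as a black line. On the left the black lines climb from -0.06 to 0.10. On the right they run from 0.01 to -0.07, while the orange points have a median of 0.19 and range from -0.10 to 0.41.

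Each library also had its own slope on GC. Expressed as log2 units per 10 percentage points of GC, it was -0.13 in both controls of litter 2, and 0.13 and 0.10 in Mut_181-3 and Mut_190-6, the embryos with the highest values of *Rps10* and *Rpl27a*. Mut_181-2 and Mut_190-4, which lay above every control for the genes set apart, had slopes of 0.04 and 0.03, like Ctr_181-5 (0.04). Mut_181-7, which lay among the controls for the stalk genes, had a slope of -0.04, and the controls of litter 1 had slopes of -0.02, 0.04 and -0.01. When the GC trend of each embryo was removed, the log2 fold change of *Rps10* was 0.38 (edgeR adjusted p = 0.0123) and that of *Rplp1* 0.49 (adjusted p = 0.0381, edgeR), so both were called. Over all alternatives the adjusted p of *Rps10* reached 0.334 and that of *Rplp1* 0.399 (edgeR). *Rpl36* went from 0.51 to 0.30 and *Rplp0* from 0.14 to 0.065, whereas *Rplp2* (0.57) and *Rpl27a* (0.65) stayed as they were.

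The litter difference was examined in the same way. In each quintile of GC the median log2 fold change of ribosomal protein genes between litters lay between 0.16 and 0.24, while that of all genes lay between -0.07 and 0.01. With the GC trend removed, 66 of 81 rose and 0 fell, where 20.3% of all tested genes rose. With the trend on merged exon length removed, 65 rose and 0 fell, where 20.1% of all tested genes rose. With the trend on transcript length removed, 55 rose and 0 fell, where 19.9% of all tested genes rose.

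Between genotypes, the lists around the ribosome are read against the same 1.9% of all tested genes higher and 1.09% lower. Of 40 biogenesis genes 0 rose and 0 fell (edgeR, median log2 fold change -0.08), and of 10 elongation genes 0 rose and 0 fell (median -0.02). Of 28 initiation factors 0 rose and 1 fell, *Eif3a* (-0.17, edgeR adjusted p = 0.0354). Of 77 mitochondrial ribosomal protein genes *Mrpl36* (0.47) and *Mrpl34* (0.54) rose and 0 fell, and of 86 oxidative phosphorylation genes 4 rose (4.65%) and 0 fell, with *Uqcrq* at 0.75 and *Cox8a* at 0.27. *Fau*, a small subunit protein made as a fusion with a ubiquitin-like domain, had a log2 fold change of 0.24 (edgeR adjusted p = 0.104), and *Rack1* of 0.00. Of the 10 cycling markers *Mki67* and *Pcna* fell and 0 rose (median -0.27), with sums of 874 to 1889 CPM in controls and 580 to 1610 CPM in *Dot1l*-cKO embryos. The part of these markers in the genotype values of the ribosomal protein genes was not tested.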

How the data were processed

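Lumbar spinal cords of 5 control and 5 *Dot1l*-cKO embryos were sequenced. Per the methods, reads were trimmed (TrimGalore), mapped on mm10 (STAR) and counted (featureCounts), and the authors deposited raw counts per gene. The strand setting is not given in the sources used here. Of 54146 rows, 54079 matched GENCODE annotation of GRCm38, the same build.

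Counts were tested with edgeR 4.0.16 in R 4.3.3 (default filter, TMM, quasi-likelihood F test at default settings, litter in the model, Benjamini-Hochberg adjustment at 0.05). The standard error is the log2 fold change divided by the root of F. Members and gene lists were chosen with earlier results of these data known. Named were the called genes (at most 10 per direction), the 5 largest differences each way, the 5 highest and lowest levels, and genes fixed by role. *Rpl34*, *Rpl12* and *Rpl13* were named after their values were seen. limma 3.58.1 and DESeq2 1.42.0 served as alternatives. Every pair of embryos within a genotype differed beyond sampling noise. A few genes that the rule names are not reported here.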

Additional observations from a re-analysis of the deposited data

Results flagged for a closer look

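In 70 groups of 5 embryos checked for a single distant value, 1 stood out, where chance gives about 1 in 20. *Rpl36al*, a rare paralog of *Rpl36a*, was at 2.15 CPM in Ctr_190-7 of litter 2, and the other 4 controls lay between 1.25 and 1.34 CPM. Reads shared with *Rpl36a* (105 CPM) cannot be told apart from its own.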

How the results depend on the processing

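The median litter difference stayed positive in each alternative run. The number of ribosomal protein genes higher in litter 2 was 31 with *Xist* as a covariate (11.6% of all genes), 21 in controls alone and 37 in *Dot1l*-cKO embryos alone (fewer embryos), and 47 to 59 when each embryo was left out in turn (13.8% to 17.2% of all genes). The median log2 fold change was 0.15 with library size only. For single genes named here, the litter difference turned negative for *Rplp1*, *Rplp2* and *Rpl36* with *Xist* as a covariate (-0.080, -0.13 and -0.33, with 76 of 81 genes positive) and in controls alone (-0.074, -0.11 and -0.31). For *Rpl36* it also did so with library size only (-0.0092) and without Ctr_181-4, Mut_181-7 or Mut_190-6 (lowest -0.10, highest 0.20 over the 10 fits). Of the 2 genes higher between genotypes, limma-voom and robust estimation each kept 1, *Rps10*, where 1.25% and 1.98% of all genes were higher. *Rplp1* was at 0.58 and 0.59 in these fits. DESeq2 called 3 of 83 (with *Rps27rt*, 2.42% of all genes). No litter in the model, *Xist* as a covariate and litter 1 alone kept 0. Over all genes those 3 fits called 0, 14 and 1 higher and 0, 35 and 11 lower, and without litter the log2 fold changes of *Rps10* and *Rplp1* were 0.50 and 0.61. In litter 1 alone they were 0.40 and 0.38. With *Xist* as a covariate they were 0.39 and 0.33, and those of *Rplp2*, *Rpl36* and *Rplp0* were 0.30, 0.18 and 0.035. Without the expression filter 10 of 83 were higher (3.82% of all genes), and in litter 2 alone 8. Leaving out each embryo gave 0 to 7 higher and 0 to 1 lower. The 7 and the 1 (*Rps27l*) were without Mut_181-7, where 4.90% of all genes were higher and 2.11% lower. GC and merged exon length correction together gave 1 lower gene (1.16% of all genes). The cause of these changes was not tested. After seeing the data, correction by transcript length was added, with 2 and 55 genes higher (2.29% and 19.9% of all genes), and the mean of the cycling markers as a covariate. That covariate nearly equals the litter and left 0 and 0 genes, so it says nothing about either. No paired analysis was possible because the embryo numbers are not shared between the groups.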
